A study of Homo sapiens with 24 samples.

Results

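CCL2 encodes the chemokine also called MCP-1, and its transcript was measured here in RNA that came down with the RNA-binding protein HuR or with a control antibody. It was taken by its gene symbol from the deposited intensities, where it is 1 of 355 measured genes, each with a single probe. CCL2 draws monocytes and memory T cells through the receptor CCR2, and airway epithelium is known to release it during inflammation. TNFα acts on the gene mainly through NF-κB, and the short life of such chemokine mRNAs is set in part by AU-rich elements. HuR, encoded by ELAVL1, is known to bind such elements and to slow the decay of many of its targets.

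The cells were BEAS-2B, an immortalised line of human bronchial epithelial cells. Stimulated cells had received TNFα at 50 ng/ml together with IFNγ at 50 ng/ml and untreated cells PBS, each for 18 h or for 3 h. From each lysate, RNA was pulled down (IP) with an antibody to HuR or with isotype control IgG1. Radiolabelled cDNA made from it was read on membrane arrays of inflammatory genes. The 24 arrays make 8 groups of 3, with HuR IP or IgG1 IP, stimulated or untreated, at 18 h or 3 h. Every group has arrays numbered 1, 3 and 4, called sets here, and the design text speaks of biological replicates. For the HuR IP the labels name R&D as antibody vendor on the arrays of stimulated cells and Santa Cruz Biotechnology on those of untreated cells, while the shared protocol names a single HuR antibody. If the vendor labels hold, vendor and stimulation cannot be told apart within the HuR arrays. No array of unprecipitated RNA was analysed here, so more CCL2 transcript in the cells and better recovery of it in the IP cannot be told apart. Epithelial markers have no measured member, and the level averaged over the 5 measured leukocyte markers lay between -0.75 and 0.37 on every array.

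A level below is the log2 intensity of CCL2 minus the median log2 intensity of the 355 genes on the same array, so that each unit is a doubling relative to the middle gene. Array medians ran from 2303 to 23848 intensity units. Comparisons are contrasts of a limma fit to all 24 arrays, adjusted by Benjamini-Hochberg over the 355 genes, and a gene passed with an adjusted p under 0.05. CCL2 had a residual SD of 1.17 between arrays of a group, against a median of 0.39 over all genes. CXCL10, a T-cell chemokine induced by IFNγ, was lower on each of the 4 stimulated arrays of set 1 than in sets 3 and 4 of the same group. Inducible genes did not all share this. In the HuR IP of stimulated cells at 18 h, IRF1, ICAM1 and CCL5 were also lowest in set 1. CXCL8 (2.22 against 0.35 and 1.00 in sets 3 and 4) and IL6 (1.74 against 0.48 and 1.33) were highest in set 1 there. Values without set 1 are given where they matter.

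CCL2 was at its highest in the HuR IP of stimulated cells and at its lowest in the IgG1 IP of untreated cells. The HuR IP of stimulated cells at 18 h gave levels of 7.64, 4.81 and 6.67 (sets 1, 3 and 4, an order kept throughout), from intensities of 2615323, 227884 and 1427066. The HuR IP of untreated cells at 18 h gave 1.84, 0.74 and 2.76, from intensities of 67729, 7443 and 47884. The stimulated and untreated groups did not overlap. With the IgG1 IP, stimulated cells at 18 h gave 1.79, 5.97 and 4.84. The IgG1 IP of untreated cells at 18 h gave 0.59, 0.73 and 0.73. The set 1 array was the low one of its stimulated IgG1 group by over 3 units, yet lay above all 3 untreated arrays.

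At 3 h the HuR IP of stimulated cells gave 5.44, 6.05 and 6.28, and the HuR IP of untreated cells 3.55, 1.70 and 2.50. The IgG1 IP of stimulated cells gave 3.16, 5.98 and 5.02, and the IgG1 IP of untreated cells 1.31, 0.98 and 1.03. The stimulated HuR arrays were close to each other here, and set 1 was again the low array of the stimulated IgG1 group. CCL2 was the brightest spot on 8 of the 12 arrays of stimulated cells, among them all 6 with the HuR IP, and it held 18.8% of the summed intensity on the stimulated HuR array of set 1 at 18 h. Brightness also depends on the probe, so this does not rank CCL2 against other transcripts. On the 6 arrays of untreated cells with the IgG1 IP its intensity was 2.17 to 3.98 times that of the dimmest spot, and the share of background in those values was not tested.

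**Figure D1:**
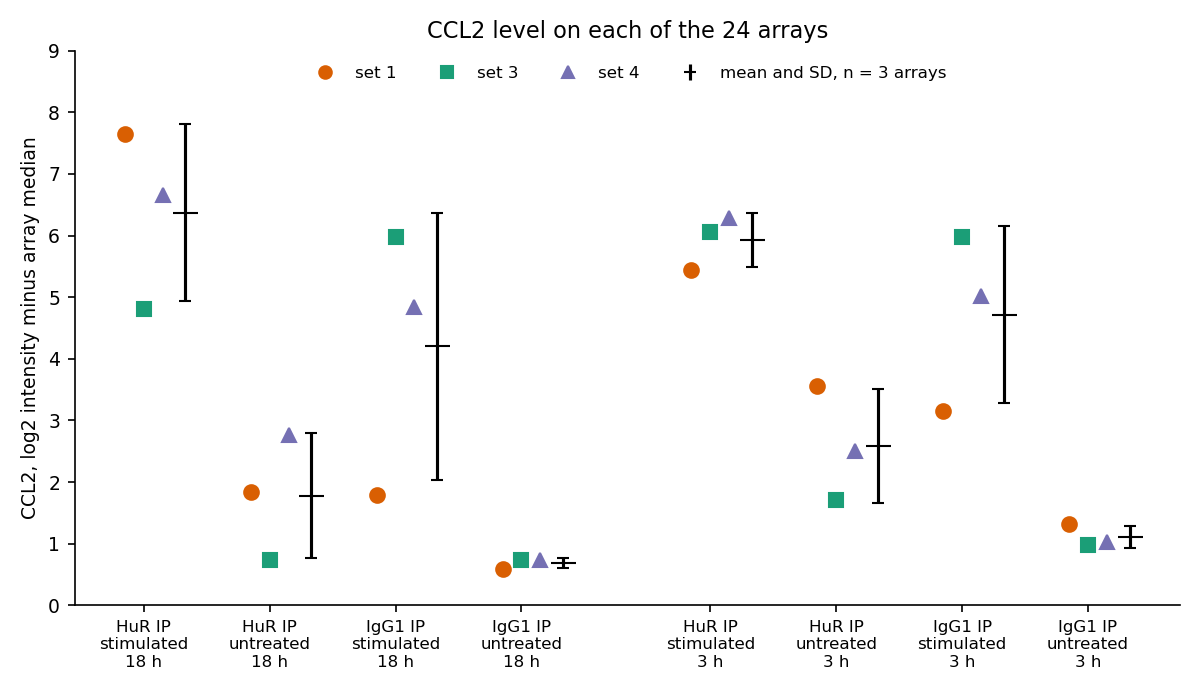
CCL2 level on each array (log2 intensity minus the array median, vertical axis) in the 8 groups, with a symbol for each set and the mean and SD of 3 arrays beside it. All stimulated arrays lie above the untreated arrays of the same antibody and time, and the IgG1 arrays of untreated cells lie closest together, from 0.59 to 1.31.

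In order of the group means, the HuR IP of stimulated cells came first, at 18 h (6.37 ± 1.44, SD, n = 3 arrays for each mean) and then at 3 h (5.93 ± 0.43). The IgG1 IP of stimulated cells followed, with 4.20 ± 2.16 at 18 h standing below 4.72 ± 1.43 at 3 h. The HuR IP of untreated cells came next, with 1.78 ± 1.02 at 18 h below 2.59 ± 0.93 at 3 h. The IgG1 IP of untreated cells closed the order, with 0.69 ± 0.08 at 18 h below 1.11 ± 0.18 at 3 h. No 2 neighbours in this order differed past the threshold (limma adjusted p from 0.914 to 0.999), and the arrays of neighbouring groups overlapped except for the last pair.

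The response to TNFα and IFNγ was the clearest difference in CCL2. Over both antibodies and both times its level averaged 5.30 in stimulated and 1.54 in untreated cells, and it rose by 3.76 ± 0.45 (SE, 12 arrays on each side, 13.6-fold, limma adjusted p = 1.76e-05). This mean was added after the data were seen. In it 25 of the 355 genes passed (7.04%), and CCL2 had the largest difference, with CXCL10 close behind at 3.74. Leaving out set 1 put the difference of CXCL10 above that of CCL2 (4.31), and the difference between these genes was not tested. For CCL2 the stimulated array was the higher in 12 of 12 pairs of arrays that share antibody, time and set, by 1.20 to 5.80. That holds for 18 of the 355 genes (5.07%). On plain intensities it was the higher in 11 of 12 pairs, with 10466 in stimulated and 17804 in untreated cells for the IgG1 IP of set 1 at 18 h. The pairs come from 3 sets and are not independent. Over the 3 set means of 2.68, 4.67 and 3.95, an exact two-sided sign-flip test gave p = 0.25, the smallest that 3 sets allow.

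Within a single antibody and time, CCL2 passed in the HuR IP at 18 h, where it rose by 4.59 ± 0.90 (SE, n = 3 arrays per group, 95% interval 2.71 to 6.47, 24.1-fold, limma adjusted p = 0.0128). It had the smallest p of all genes there, just ahead of CCL5 (3.50, with the same adjusted p), and 1.13% of genes passed. Over all alternatives the adjusted p of CCL2 ran from 2.12e-05 to 0.999. That call was lost without set 3 (adjusted p = 0.101), without set 4 (adjusted p = 0.999) and when only these 6 arrays were fitted (adjusted p = 0.0553), with differences of 4.85, 4.94 and 4.59. It was also lost without the untreated HuR array of set 1 (adjusted p = 0.0550) or set 3 (adjusted p = 0.0866), or the stimulated HuR array of set 1 (adjusted p = 0.0874) or set 4 (adjusted p = 0.0833), with differences from 3.96 to 4.62. In the IgG1 IP at 18 h the difference was 3.52 ± 0.90 (interval 1.64 to 5.39, adjusted p = 0.0562, 1.41% of genes passed). At 3 h it was 3.34 ± 0.90 in the HuR IP (interval 1.46 to 5.22, adjusted p = 0.106, 0.563% passed) and 3.61 ± 0.90 in the IgG1 IP (interval 1.73 to 5.49, adjusted p = 0.0530, 1.13% passed). These fits do not use the set number. With set added to the fit as a block, CCL2 passed in the IgG1 IP at 18 h and 3 h (limma adjusted p = 0.0302 and 0.0307). In the HuR IP at 3 h it still did not (adjusted p = 0.0585).

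In each of these comparisons all 3 stimulated arrays lay above all 3 untreated ones. That was so for 6.2% of genes in the HuR IP and 5.35% in the IgG1 IP at 18 h, and for 5.63% in each IP at 3 h. Set 1 held the smallest response in the HuR IP at 3 h and in the IgG1 IP at both times, with 1.89, 1.84 and 1.20, and the largest in the HuR IP at 18 h, with 5.80. Without set 1, CCL2 passed in all 4 comparisons, with 3.99 in the HuR IP and 4.67 in the IgG1 IP at 18 h (adjusted p = 0.00426 and 0.000708) and 4.07 and 4.50 at 3 h (adjusted p = 0.00304 and 0.00103). More genes passed in these fits than with all sets, 11 and 24 of 355 at 18 h and 19 and 17 of 355 at 3 h, in the same order. Over all alternatives the adjusted p ran from 0.00304 to 0.985 in the HuR IP at 3 h, from 0.00103 to 0.994 in the IgG1 IP at 3 h and from 0.000649 to 0.997 in the IgG1 IP at 18 h. Leaving out just the stimulated IgG1 array of set 1 at the same time gave 4.72 at 18 h (adjusted p = 0.000649, 18 of 355 genes passed) and 4.39 at 3 h (adjusted p = 0.0124, 9 of 355 passed). CXCL10 stood at 1.07 on the 18 h array against 6.41 in set 3 and 5.91 in set 4, and the adhesion molecule ICAM1 at 0.73 against 4.88 and 4.92. On the other stimulated arrays of set 1, CXCL10 stood at 2.40 in the HuR IP at 18 h (3.91 and 5.40 in sets 3 and 4), at 1.22 in the HuR IP at 3 h (3.92 and 3.53) and at 1.05 in the IgG1 IP at 3 h (4.01 and 3.28). The chemokine CCL13 went the other way on the HuR arrays of set 1, with 4.32 at 18 h (0.84 and 1.80) and 2.29 at 3 h (0.95 and 1.18). The part of set 1 in the results was not tested beyond leaving it or its arrays out.

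The change with stimulation did not differ detectably between the antibodies. At 18 h the response in the HuR IP exceeded that in the IgG1 IP by 1.08 ± 1.27 (SE, limma interval -1.58 to 3.73, adjusted p = 0.994), and at 3 h the difference was -0.27 ± 1.27 (interval -2.93 to 2.39, adjusted p = 0.999). Neither had any gene that passed (0% of 355), and limma counted 0 genes at an unadjusted p under 0.05 in both. At 18 h the value was 3.06 in the second deposited table and 2.73 with no normalization (adjusted p = 0.117 and 0.382), where the median of all genes moved to 1.99 and 1.66. The 18 h value turned to -0.68 without set 1 and to -0.13 without the stimulated IgG1 array of set 1. The 3 h value turned to 0.36 without the stimulated IgG1 array of set 3 and to 0.21 without the untreated HuR array of set 1. The intervals include responses several times larger in either IP.

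Setting the HuR IP against the IgG1 IP asks whether CCL2, relative to the middle gene of its array, stood higher with HuR than with the control antibody. Centring removes any difference in recovery that the genes share, so absolute recovery cannot be read from these values. With no normalization the median of all genes, HuR over IgG1, was 1.35 in stimulated and -0.29 in untreated cells at 18 h. Over the 4 conditions CCL2 averaged 4.17 in the HuR IP and 2.68 in the IgG1 IP, a difference of 1.49 ± 0.45 (SE, 12 arrays on each side, interval 0.55 to 2.43, 2.81-fold). It ranked second of 355 genes by p and by size, but did not pass (limma unadjusted p = 0.00367, adjusted p = 0.446), and neither did any other gene (0%, with 12 at an unadjusted p under 0.05). The second deposited table, which multiplies each array by a factor of the authors, gave 1.77 (adjusted p = 0.0114, 2 of 355 genes passed), and z scores within arrays passed as well (adjusted p = 0.0146, 1 of 355). In that table the median of all genes was 0.25, and CCL2 stood 1.52 above it, as it stood 1.52 above the median in the reported fit. Over all alternatives the adjusted p ran from 0.0114 to 0.996. The HuR array was the higher in 11 of 12 pairs, which 4 of 355 genes reached (1.13%). It was higher in 10 of 12 pairs of plain intensities.

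The excess in the HuR IP ranged from 1.10 to 2.17 between conditions and from -0.09 to 2.91 between sets. Its means over the 4 conditions were 2.91 for set 1, -0.09 for set 3 and 1.65 for set 4, and these average 1.49 ± 0.87 (SE over 3 sets, exact two-sided sign-flip p = 0.50, where 0.25 is the smallest possible). A fit with set and its interaction with antibody, added after the data were seen, put set 1 above set 3 by 3.00 (interval 1.17 to 4.83, limma adjusted p = 0.0634, 3.38% of genes passed). Set 4 lay above set 3 by 1.74 (interval -0.09 to 3.57, adjusted p = 0.746, 0% passed), and set 1 above set 4 by 1.26 (interval -0.57 to 3.09, adjusted p = 0.547, 0% passed). Leaving out set 1 brought the mean down to 0.78 (adjusted p = 0.996), and leaving out set 3 raised it to 2.28 (adjusted p = 0.0759).

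By condition, stimulated cells at 18 h had the largest excess, 2.17 ± 0.90 (SE, n = 3 arrays per group, interval 0.29 to 4.05, limma adjusted p = 0.990, 0% of genes passed). It was made of 5.85, -1.16 and 1.83, so that after centring the sets did not share a direction, and the groups overlapped. On plain intensities the HuR array was the higher in each set, 250, 1.58 and 4.02-fold. In the second deposited table it was so too, 183, 3.10 and 4.80-fold. The array medians of set 3 were 8131 with HuR and 2303 with IgG1. The centred excess was 0.97 without the stimulated IgG1 array of set 1, 0.33 without all of set 1 and 3.84 without set 3. In stimulated cells at 18 h the second deposited table gave 3.80 (adjusted p = 0.00697, from 0.00697 to 1.00 over all alternatives), and 25 of the 355 genes passed in that fit. All genes there had a median difference of 1.61, and CCL2 stood 2.20 above it. Stimulated cells at 3 h gave 1.21 ± 0.90 (interval -0.67 to 3.09, adjusted p = 0.999), with 2.29, 0.08 and 1.26, and it was 0.43 without the stimulated IgG1 array of set 1 at 3 h.

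In untreated cells the centred level of CCL2 was also higher in each HuR array than in any IgG1 array of the same time, although the means did not pass. The excess was 1.10 ± 0.90 at 18 h (SE, limma interval -0.78 to 2.97, adjusted p = 0.999) and 1.48 ± 0.90 at 3 h (interval -0.40 to 3.36, adjusted p = 0.999). Such separation of all 3 HuR arrays above all 3 IgG1 arrays held for 10 genes at each time (2.82%). By set the excess at 18 h was 1.26, 0.00 and 2.03, so that set 3 had the same level in both IPs and the separation at 18 h rests on a margin of under 0.01. At 3 h it was 2.24, 0.73 and 1.47. On plain intensities the HuR array of set 3 was lower than its IgG1 partner, 0.79 times at 18 h and 0.85 times at 3 h. In the second deposited table these ratios were 0.76 and 1.26. The intensity of that HuR array at 18 h was 2.34 times that of its dimmest spot. With no cytokine given, the untreated HuR array of set 1 at 3 h reached 3.55, a level above the stimulated IgG1 array of the same set and time (3.16).

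**Figure D2:**
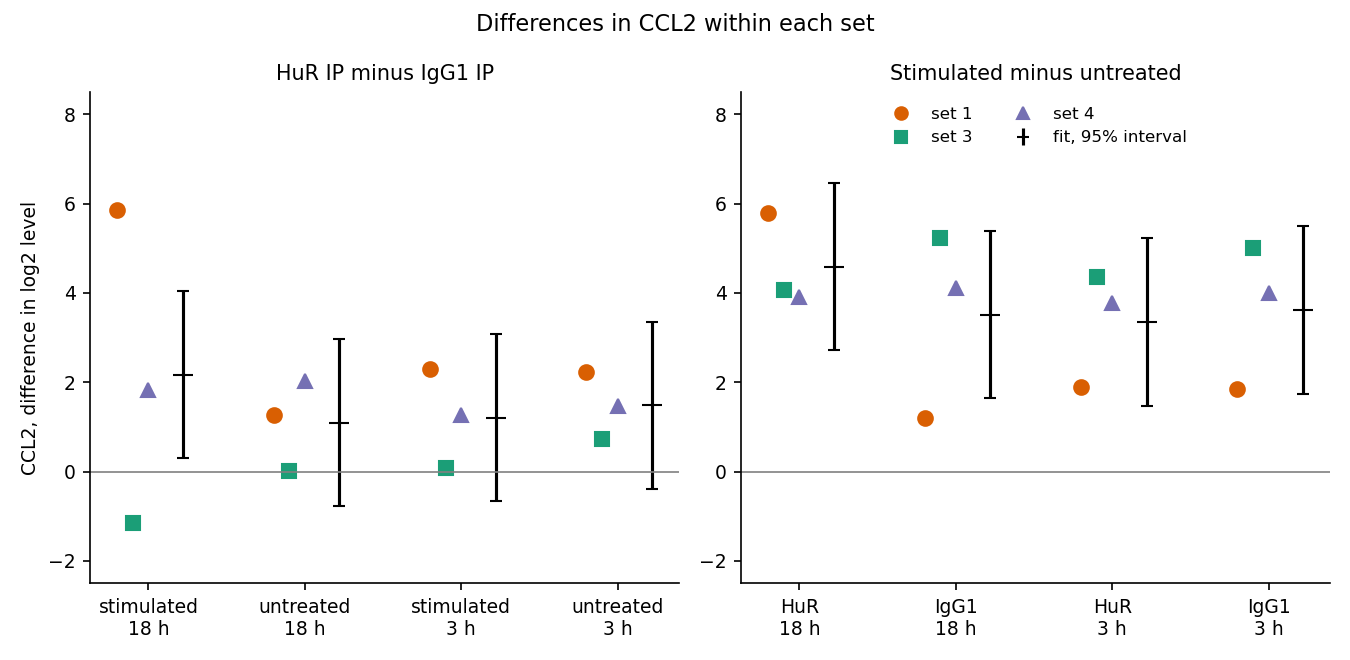
Difference in CCL2 level (log2, vertical axis) between arrays of the same set, as points for sets 1, 3 and 4, with the fitted difference and its 95% interval. The left panel sets HuR against IgG1, where set 3 lies near or below 0 in 3 of 4 conditions, and the right panel stimulated against untreated cells, where all 12 points lie above 0.

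The level of CCL2 did not differ detectably between the 2 times. In stimulated cells 18 h exceeded 3 h by 0.45 ± 0.90 in the HuR IP (SE, interval -1.43 to 2.32, limma adjusted p = 0.999, 0.282% of genes passed), and in the IgG1 IP the difference was -0.52 ± 0.90 (interval -2.39 to 1.36, adjusted p = 0.996, 0.282% passed). The HuR value came from 2.20, -1.25 and 0.38, and turned to -0.43 without set 1. The IgG1 value came from -1.36, -0.01 and -0.18, and turned to 0.69 without the stimulated array of set 1 at 18 h and to 0.11 without that of set 3 at 3 h. The gene that passed in both was CCL5, a chemokine for T cells, with 3.44 in the HuR IP and 3.53 in the IgG1 IP (adjusted p = 0.0313 and 0.0235). In untreated cells 18 h lay below 3 h by values that did not pass, -0.80 ± 0.90 in the HuR IP (interval -2.68 to 1.07, adjusted p = 0.996) and -0.42 ± 0.90 in the IgG1 IP (interval -2.30 to 1.46, adjusted p = 0.999), where 0% of genes passed. All 3 IgG1 arrays at 18 h lay below all 3 at 3 h in untreated cells, as for 2.82% of genes.

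Of the 354 other genes, CCL8 followed CCL2 most closely over the 24 arrays, and CXCL1, CXCL2, CCL13 and ICAM1 came next. CCL8 and CCL13 are related monocyte chemokines (MCP-2 and MCP-4), CXCL1 and CXCL2 are neutrophil chemokines, and ICAM1 is a receptor for leukocyte integrins. Pearson's r with CCL2 was 0.96 for CCL8, 0.92 for CXCL1, 0.91 for CXCL2, 0.85 for CCL13 and 0.84 for ICAM1, against a median of -0.05 over all 354. Since all 5 differed with stimulation, r was also taken within stimulated and within untreated cells. Over the 12 stimulated arrays it was 0.91 for CCL8, 0.89 for CXCL1, 0.89 for CXCL2, 0.72 for CCL13 and 0.55 for ICAM1. Over the 12 untreated arrays it was 0.78 for CCL8 and 0.14 to 0.47 for the other 4. The points share sets and array scaling, and no p is given. The same 5 genes came first with set means removed, and over the 8 group means CCL8, SOCS3, CXCL1, CXCL2 and ELK3 did. How far the probes of the related genes CCL2, CCL8 and CCL13 cross-hybridise was not tested.

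**Figure D3:**
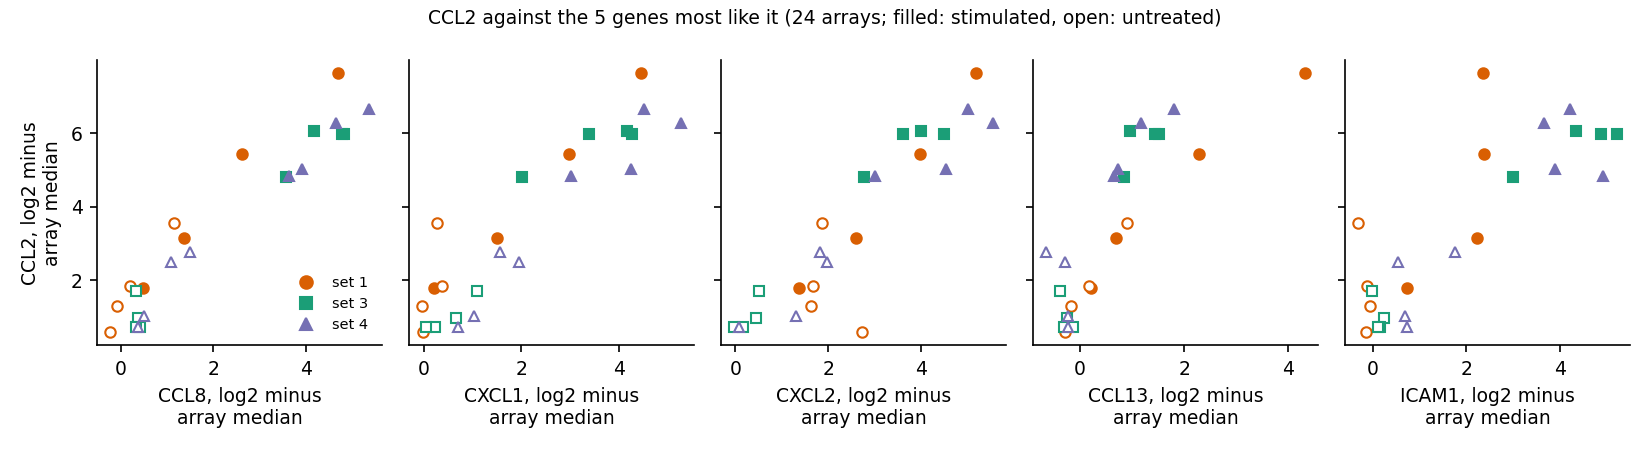
Level of CCL2 (vertical axis) against the level of each of the 5 genes most like it (horizontal axes), both as log2 intensity minus the array median, for 24 arrays marked by set and filled where cells were stimulated. CCL8 forms the tightest line (r = 0.96) and ICAM1 the loosest (r = 0.84).

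In the comparison of antibodies these genes had smaller differences than CCL2. In the mean over 4 conditions the HuR excess was 0.78 ± 0.45 for CCL8, 0.79 ± 0.44 for CXCL1, 0.70 ± 0.42 for CXCL2, 0.57 ± 0.31 for CCL13 and -0.13 ± 0.46 for ICAM1 (SE, 12 arrays on each side, limma adjusted p = 0.992 for each), beside 1.49 for CCL2. The difference between CCL2 and these genes was not tested. A list chosen after the data were seen gives the genes whose HuR excess went with that of CCL2 over the 12 pairs: CCL8 (r = 0.98), MAX (r = 0.97), CXCL1 (r = 0.95), SOCS3 (r = 0.95) and TGIF1 (r = 0.94), against a median r of 0.03. MAX is the partner of MYC, SOCS3 a feedback inhibitor of cytokine signalling and TGIF1 a corepressor. The pairs share the 3 sets.

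The MCP family and its receptors had 7 measured genes of 9 listed and 2 of the 7 rose in the mean over antibodies and times, in which 7.04% of all genes passed and where 6 of the 7 lay above 0, against 139 of all 355 genes. CCL8 rose by 3.18 ± 0.45 (limma adjusted p = 9.21e-05) and CCL13 by 1.54 ± 0.31 (adjusted p = 0.00212). Both also passed in the HuR IP at 18 h, with 3.87 and 2.58 (adjusted p = 0.0452 for each). CCL7, or MCP-3, stood at 0.25 ± 0.13 (adjusted p = 0.557), and CCR2, the receptor of CCL2, at 0.08 ± 0.25 (adjusted p = 0.977). CCR1 and CCR3, receptors of other CC chemokines, stood at 0.07 and -0.03. No member passed in the antibody mean, where 3 of the 7 lay above 0, against 144 of all 355 genes.

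Of 23 listed genes of TNFα and IFNγ signalling towards CCL2, 21 were measured, and 5 rose with stimulation in the same mean (7.04% of all genes passed). Among them were IRF1, a transcription factor induced by interferon (2.35 ± 0.25, limma adjusted p = 8.18e-06), and NFKBIA (2.30 ± 0.57), RELA (1.25 ± 0.36) and NFKB2 (0.65 ± 0.16) of the NF-κB system (adjusted p = 0.0144, 0.0395 and 0.0149). None fell, and the list's median was 0.06. CC chemokines other than CCL2 had 19 measured of 23 listed, of which 3 rose beside the 7.04% of all genes, CCL5, CCL8 and CCL13, and the median was 0.03. Of 15 measured of 17 further inducible transcripts with AU-rich elements or described HuR binding, 7 rose, again beside 7.04% of all genes: CXCL1, CXCL2, CXCL8, CXCL10, IL6, IL1B and CDKN1A, with a median of 0.25. In the antibody mean no member of these lists passed, and the medians were -0.07, -0.03 and -0.06. The highest members were at 0.49, 0.78 and 0.79, below 1.49 for CCL2. The gene with the largest HuR excess in that mean was JUND, which is in none of these lists, and CCL2 came next.

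**Figure D4:**
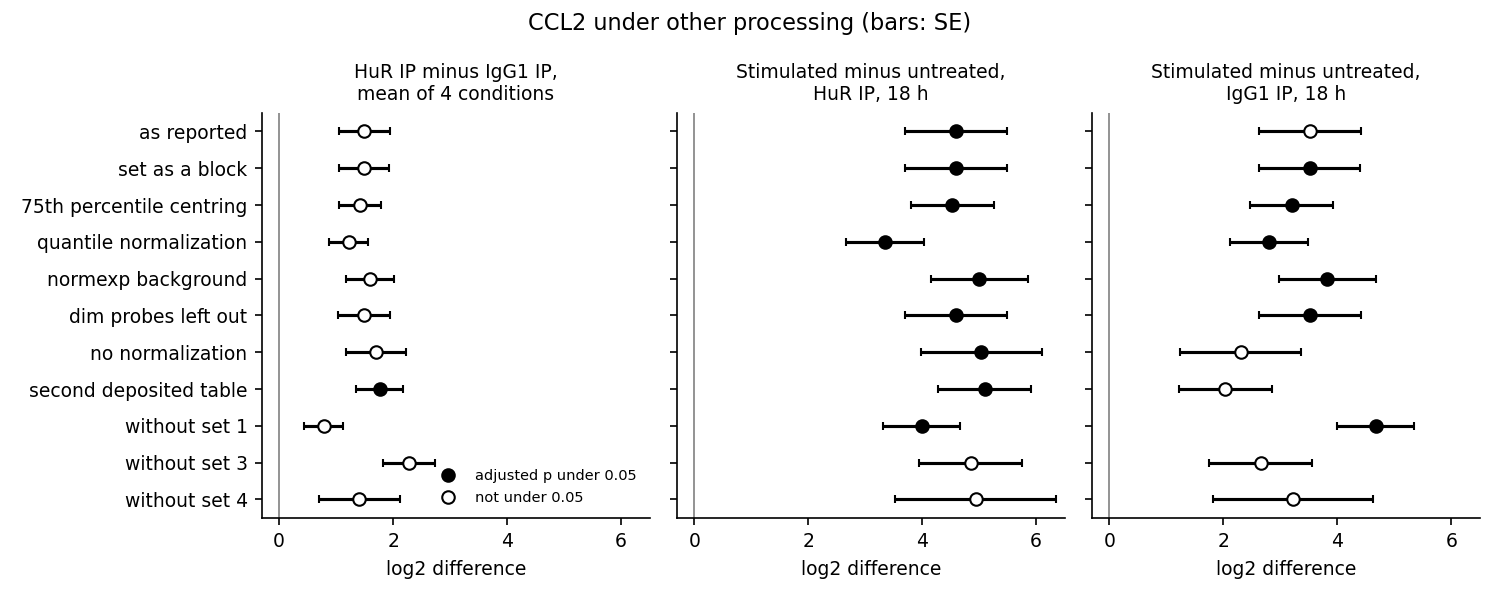
CCL2 difference (log2, horizontal axis, bars are SE) under 11 ways of processing, filled where the adjusted p was under 0.05. The antibody difference (left) ranges from 0.78 to 2.28 and the stimulated differences at 18 h from 3.36 to 5.10 in the HuR IP (middle) and from 2.04 to 4.67 in the IgG1 IP (right), all above 0.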

How the data were processed

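The files were read as deposited. The first table deposited by the authors gives an intensity for each probe on each array as whole numbers, and its name calls it non-normalized. How images were read and background treated is not stated in the labels or headers. Their second table holds the same intensities multiplied by 1 factor per array, from 0.542 to 3.64, and what sets it is not stated. Of 384 probes, 29 hold no value, ELAVL1 has no value here, and 342 of the 355 measured probes were named through their accession in the GRCh38.p14 gene table. Log2 intensities were centred on each array's median. limma 3.58.1 in R 4.3.3 (lmFit, eBayes) fitted 8 group means to 24 arrays with no block. The number of arrays limits the precision. Named genes were CCL2, the 5 most correlated with it over 24 arrays, CCL7, CCL8, CCL13 and at most 4 passing members a list, and others named were chosen after their values were seen. CCL2, the lists and the comparisons were chosen with earlier results of these data known. Some list members are not reported here by name. The fit was tested on simulated data. The labels do not say what a set is beyond a biological replicate, and p-values measure the spread between these arrays. Alternatives were the set as a block, other scalings, normexp with an offset of 50, a filter on dim probes, the arrays compared alone, and each set or array left out.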

Additional observations from a re-analysis of the deposited data

How the results depend on the processing

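Of 334 repeats of the CCL2 comparisons, 293 kept both direction and side of the threshold, 26 newly passed, 7 no longer passed and 8 changed sign, and the causes were not tested. The mean response to stimulation kept both in all 35 of its alternatives (3.03 to 4.31, adjusted p from 1.47e-09 to 0.0475). Newly passed were these differences, with adjusted p from 0.00581 to 0.0489, in log2 except for z scores, which are in SDs of an array's log2 values and not comparable in size. In the IgG1 IP at 3 h it was 3.28 with quantile normalization, 3.45 with 75th percentile centring, 2.98 with z scores, 3.69 in the second table, 3.64 with normexp and 3.61 without dim probes. In the IgG1 IP at 18 h it was 2.80 with quantile normalization, 3.20 with 75th percentile centring, 2.48 with z scores, 3.82 with normexp and 3.52 without dim probes. In the HuR IP at 3 h it was 2.69 with quantile normalization, 3.32 with 75th percentile centring, 2.82 with z scores, 3.43 in the second table and 3.34 with only the arrays compared. HuR over IgG1 passed as 1.58 with z scores and 1.77 in the second table over 4 conditions, and as 3.80 in the second table for stimulated cells at 18 h. The HuR IP response at 18 h no longer passed with only the arrays compared (4.59).

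The replicate number as a block brought the response in the IgG1 IP past the threshold, with 3.61 at 3 h (adjusted p = 0.0307) and 3.52 at 18 h (adjusted p = 0.0302), and changed no other CCL2 call. The deviations of same-numbered arrays correlated above 0.1 in 82 of 84 pairs (median 0.64, lowest 0.03, against a median of -0.47 for other pairs), and all 24 arrays correlated best with their own number. Arrays of a set thus moved together in these data, which the fit without a block leaves out. The labels do not say whether same-numbered arrays came from the same lysate.

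With a set or an array left out, the stimulated difference ran from 3.96 to 5.37 in the HuR IP at 18 h, 2.63 to 4.72 in the IgG1 IP at 18 h, 2.84 to 4.07 in the HuR IP at 3 h and 2.92 to 4.50 in the IgG1 IP at 3 h. The time difference in stimulated cells ran from -0.43 to 1.29 in the HuR IP, where it was also negative without its set 1 array at 18 h (-0.19), and from -1.40 to 0.69 in the IgG1 IP (0.11 without set 3 at 3 h). HuR response minus IgG1 response ran from -0.68 to 2.20 at 18 h (-0.13 without the stimulated IgG1 array of set 1) and from -1.05 to 0.36 at 3 h (0.21 without the untreated HuR array of set 1). Genes passing ranged over all settings from 0 to 13 in the HuR IP at 18 h (4 as reported), 0 to 24 in the IgG1 IP at 18 h (5), 0 to 19 in the HuR IP at 3 h (2), 0 to 17 in the IgG1 IP at 3 h (4) and 4 to 35 in the mean response (25). For HuR over IgG1 they ranged from 0 to 25 in stimulated cells at 18 h (0) and from 0 to 2 in the mean of 4 conditions (0). Between times they ranged from 0 to 4 in the HuR IP (1) and from 0 to 9 in the IgG1 IP (1) of stimulated cells. With 3 arrays a group, a difference between 2 groups had an SE of 0.90, which limits what could be seen.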
